A study of Homo sapiens with 6 samples.

Results

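Ribosome biogenesis is described here through 40 genes for nucleolar factors, ribosomal RNA (rRNA) processing factors and small nucleolar ribonucleoprotein (snoRNP) subunits. They were chosen by gene symbol from a list drawn up for this pathway, and all 40 were found among the 60856 features of the deposited tables. The cells were Jurkat, a human T lymphocyte line of leukemic origin, labelled wild type. One group of 3 libraries was exposed to 0.1% dimethyl sulfoxide (DMSO, the vehicle) and the other group of 3 to 1 µM BPAF, which stands for bisphenol AF, the hexafluoro relative of bisphenol A. The sample labels give an exposure of 12 h and the treatment protocol one of 24 h. The share of vehicle in the BPAF group is not stated. Replicates are described as biological in the design text. All 6 libraries came from 1 cell line, so they say nothing of other T cells.

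Ribosomes are assembled in the nucleolus. RNA polymerase I transcribes the ribosomal genes into a long precursor, snoRNPs modify that precursor at selected bases, and large assemblies of helicases, GTPases and scaffold proteins fold and cut it into the RNAs of the small and the large subunit. Proliferating cells, leukemic lines among them, keep this pathway highly active, and many of its genes are known targets of the transcription factor MYC, which binds the E-box motif CACGTG.

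The promoter sequences hold this motif more often than those of other genes. RefSeq promoter windows on GRCh38.p14, from 250 bases before to 50 bases after the gene start, were at hand for 33 of the 40 members. CACGTG, which reads the same on both strands, was found in 12 of the 33 windows (36.4%), against 10.3% of the 10640 tested genes with such a window and 7.43% of all 27305 windows. The share in the other ribosome biogenesis genes described below was 23.2% (29 of 125). Of the 13 motifs in members, 11 begin within 40 bases of the gene start. The windows below give 30 bases with the motif in capitals, for the 10 members in which it lies closest to the start, among them NOP10, whose window holds 2 copies.
RRP9, chr3:51941892-51941921, minus strand: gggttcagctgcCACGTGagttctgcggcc
UTP20, chr12:101280083-101280112, plus strand: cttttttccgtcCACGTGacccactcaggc
NAT10, chr11:34105602-34105631, plus strand: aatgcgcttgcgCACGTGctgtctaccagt
UTP4, chr16:69132621-69132650, plus strand: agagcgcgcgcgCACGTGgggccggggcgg
WDR43, chr2:28894658-28894687, plus strand: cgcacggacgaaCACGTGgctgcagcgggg
GNL2, chr1:37595917-37595946, minus strand: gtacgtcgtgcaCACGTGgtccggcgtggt
PES1, chr22:30591880-30591909, minus strand: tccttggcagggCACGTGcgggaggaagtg
NOP14, chr4:2963374-2963403, minus strand: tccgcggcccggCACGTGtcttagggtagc
FBL, chr19:39846356-39846385, minus strand: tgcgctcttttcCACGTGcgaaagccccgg
NOP10, distal copy, chr15:34343289-34343318, minus strand: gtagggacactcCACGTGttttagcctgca
NOP10, proximal copy, chr15:34343130-34343159, minus strand: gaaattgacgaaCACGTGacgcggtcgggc
The remaining members with the motif were NOP2 and EBNA1BP2. It was not found in the windows of NPM1, NOP16, GNL3 and BRIX1, which are 4 of the 5 members that fell in BPAF. The remaining one, DDX18, had no window and could not be examined. The 30 bases before the start that the RefSeq windows use are shown for the 4 genes with a window, for comparison. Gene positions given further down come from another annotation, GENCODE 29, and all 4 stretches lie within those gene spans.
NPM1, chr5:171387819-171387848, plus strand: gtctatatataagcgcggggagcctgcgtc
NOP16, chr5:176388599-176388628, minus strand: cttgtgcacgccttccggaaggagtttgtt
GNL3, chr3:52685890-52685919, plus strand: ccctcccggtgccgccgcaaaaccagtccc
BRIX1, chr5:34915681-34915710, plus strand: aaataggagcgagcggcagcgccggaaagg
A match is a run of letters and not a measured binding site, and its absence says only that these letters are not in this window. MYC itself was at 471, 512 and 502 CPM (counts scaled to library size with TMM factors) in DMSO and at 458, 478 and 463 CPM in BPAF. Its groups overlapped, and the difference did not pass (log2 fold change -0.087, edgeR adjusted p = 0.12), although it did once length and GC content were entered as an offset (-0.12, adjusted p = 0.0266). The 12 members with the motif had a median log2 fold change of -0.041 and the 21 without it one of -0.063.

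In BPAF, 5 of the 40 members fell and 0 rose. These were NPM1, NOP16, GNL3, BRIX1 and DDX18, and their levels fell by 6.84% to 12.9%. All 40 members passed the filter on low counts and were tested with edgeR's quasi-likelihood test, with p-values adjusted over all 15490 genes tested and a threshold of 0.05. Over all genes tested, 3.4% were called lower and 2.65% higher, and over the protein-coding ones 4.14% and 1.87%. Members are well expressed, and among the 5935 tested genes at or above the lowest member's abundance 8.21% were called lower and 2.59% higher. The members' 12.5% stood above the first background and nearer to the second, so the count alone does not set these genes apart from other abundant transcripts. Without adjustment 11 members had a p under 0.05 and a lower level (10.5% of all genes) and 2 had a higher one (9.36%). DESeq2 called 6 members lower (6.9% of the genes to which it gave an adjusted p) and 0 higher (2.42%). Limma-voom called 4 lower (2.94%) and 0 higher (2.05%), and edgeR without a filter 6 (2.44%) and 0 (1.84%). On log2 of TPM plus 1, limma called 0 members and 1 gene in all, with 1 member lower and 7 higher at an unadjusted p under 0.05. The split over all genes, 527 lower and 411 higher, was 400 and 461 with upper quartile scaling, 467 and 164 in DESeq2 and 1003 and 306 with an adjustment for length and GC content.

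The remaining members mostly lay slightly lower without passing the test. The log2 fold change (BPAF over DMSO) was below 0 for 29 of 40 members, or 72.5%, against 49.2% of all genes tested, 54.2% of the protein-coding ones and 64.3% of the 5935 genes at least as abundant as the lowest member. On deposited TPM (transcript abundance scaled for gene length) the sign turned for most: 8 of 40 were below 0, but there the median of all genes was itself 0.078. Measured against that median, 28 members lay below it with TPM and 29 with counts. The median of the members was -0.048 with counts, where that of all genes was 0.0019 and that of the 5935 genes -0.029, and 0.046 with TPM. These 5935 genes share only a lower bound of abundance with the members and were not matched to them. Every BPAF library lay below every DMSO library for 15 members (37.5%, against 12.8% of all genes tested, 15.3% of the protein-coding ones and 24.7% of the 5935). It lay above for 2, RRP1B and PPAN (12% of all genes tested and 8.42% of the 5935). Lower values went with higher abundance across genes: the log2 fold change and log2 mean TPM had Spearman's rho = -0.37 over the 40 members and -0.26 over 12328 protein-coding genes, which share libraries and are not independent. The part of abundance in the members' shift was not tested.

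**Figure D1:**
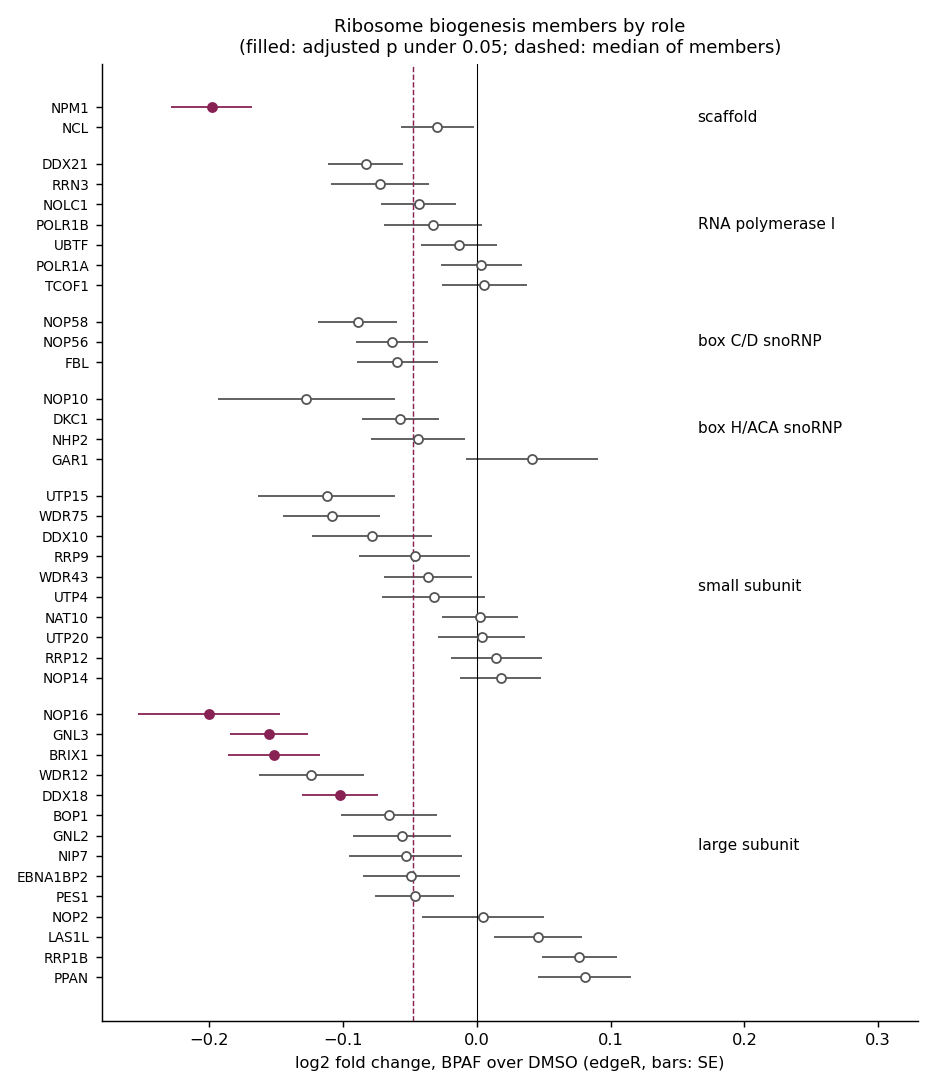
Log2 fold change of each member (horizontal axis, BPAF over DMSO on TMM-scaled counts, bars SE) by role, with filled points for adjusted p under 0.05 and a dashed line at the members' median of -0.048. The 5 filled points, NPM1 and 4 large subunit factors, lie to the left of 0, and on TPM the signs of most open points are the opposite.

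The shift was seen in each BPAF library. Expressed as the log2 difference of each library from the DMSO mean of a gene, the median over members was -0.062, -0.027 and -0.064 in BPAF replicates 1, 2 and 3. The same value was -0.0024, 0.0032 and 0.014 in the DMSO libraries, so the groups did not overlap and BPAF replicate 2 lay closest to DMSO. For all genes tested the medians ran from 0.00075 to 0.0055. Genes at least as abundant as the lowest member were not taken library by library. Their median log2 fold change over all libraries was -0.029, and the members' median in BPAF replicate 2 lay close to that value. Together the 40 members took 1.087%, 1.089% and 1.099% of counts in DMSO and 1.066%, 1.077% and 1.066% in BPAF. The mean share was 1.092% ± 0.0063 in DMSO and 1.070% ± 0.0064 in BPAF (SD, n = 3, two-sided exact permutation p = 0.1, the smallest that 3 against 3 allows). Without NPM1 the shares were 0.926% ± 0.0013 and 0.921% ± 0.0051 and the groups overlapped (exact permutation p = 0.4), and on TPM the members took 0.899% ± 0.015 and 0.902% ± 0.0064 (exact permutation p = 0.9). The summed share therefore separated the groups by counts with NPM1 included, and in neither of the other forms.

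**Figure D2:**
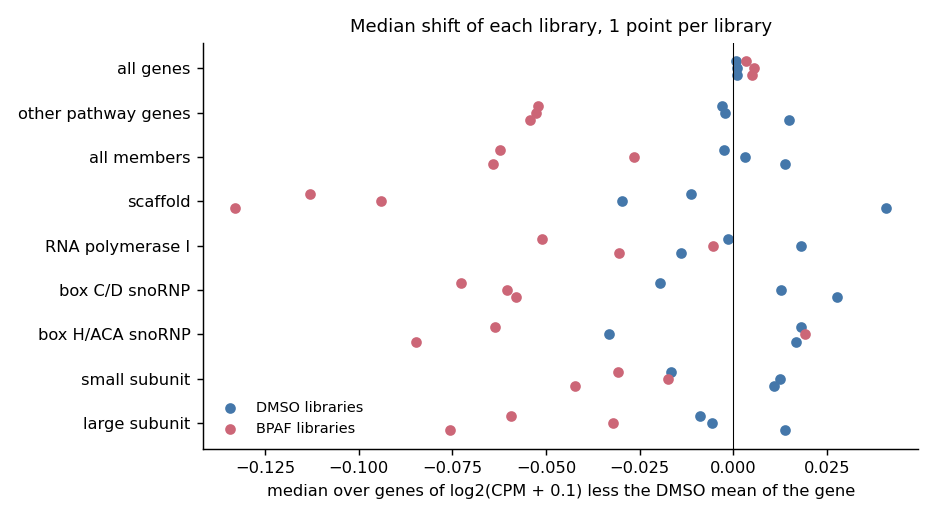
Median over the genes of a group of the log2 difference between a library and the DMSO mean (horizontal axis), 1 point per library, blue for DMSO and red for BPAF, on TMM-scaled counts. The BPAF points of all members, from -0.064 to -0.027, lie left of the DMSO points, while those of all genes tested lie at 0.0034 to 0.0055. Genes at least as abundant as the lowest member, not drawn, had a median log2 fold change of -0.029. On TPM the members' median is above 0, at 0.046.

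The nucleolar scaffold proteins NPM1 and NCL were the most abundant members and differed in their response. NPM1 encodes nucleophosmin, a histone chaperone that builds the granular outer layer of the nucleolus (ENSG00000181163, GRCh38 chromosome 5, 171387116 to 171411137). It was at 1645, 1641 and 1758 CPM in DMSO and at 1462, 1487 and 1448 CPM in BPAF. All BPAF libraries lay below all DMSO libraries. The means were 1681 ± 66.5 and 1466 ± 19.7 CPM (SD, n = 3). This amounts to -0.20 ± 0.030 on the log2 scale (SE), with an edgeR adjusted p of 0.000875. By TPM, NPM1 was at 2150 and 2005 on average and its log2 fold change was -0.10, which did not pass (limma adjusted p = 0.158). NPM1 has many processed pseudogenes, and the 49 that the tables list summed to 7.37 ± 0.88 CPM in DMSO and 7.49 ± 0.35 in BPAF. With these copies added NPM1 was at 1689 ± 67.4 and 1473 ± 19.99 CPM, so the difference was as large with them as without.

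NCL encodes nucleolin, an RNA-binding protein that supports rRNA transcription and early processing. It was at 2105, 2058 and 2117 CPM in DMSO and at 2057, 2076 and 2020 CPM in BPAF. The groups overlapped, and the log2 fold change was -0.029 ± 0.027 (edgeR adjusted p = 0.611).

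**Figure D3:**
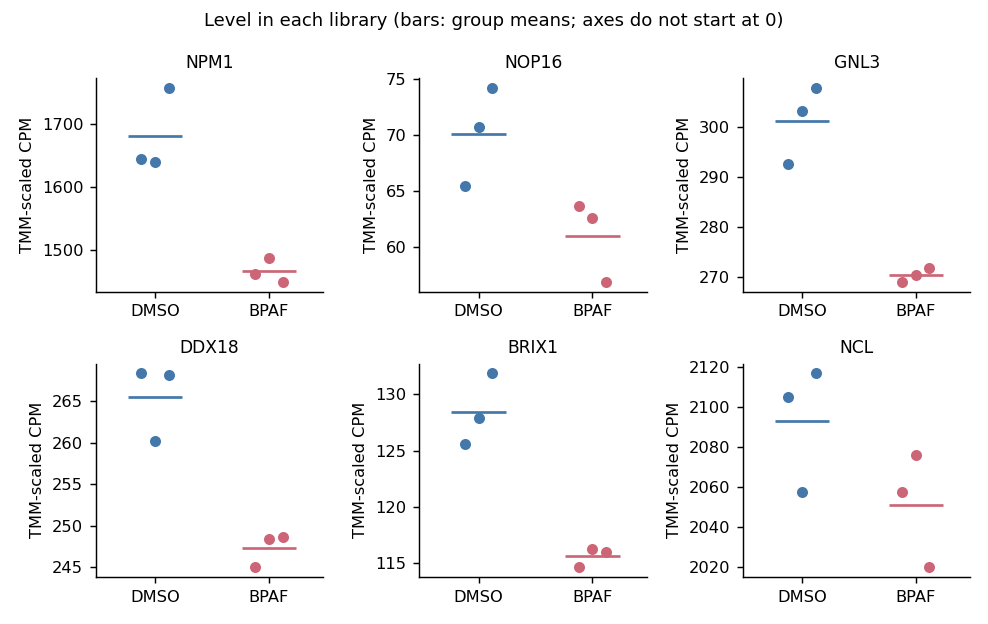
TMM-scaled CPM (vertical axes, not starting at 0) in each library for the 5 members that fell and for NCL, with bars at the group means. BPAF points lie below all DMSO points for NPM1, NOP16, GNL3, DDX18 and BRIX1, and overlap them for NCL. On TPM the mean of DDX18 is slightly higher in BPAF.

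RNA polymerase I and its cofactors gave 0 calls among 7 members in edgeR, with 1 unadjusted p under 0.05. The catalytic subunits lay close to their DMSO level. POLR1A, the largest subunit, averaged 214.4 ± 4.32 CPM in DMSO and 214.9 ± 4.32 CPM in BPAF libraries (log2 fold change 0.0036 ± 0.030). POLR1B, the second largest, was at 98.97 ± 1.01 and 96.8 ± 1.78 CPM (-0.032 ± 0.037). UBTF, which binds the ribosomal gene promoter, had a log2 fold change of -0.013 ± 0.028, and TCOF1, the treacle protein that links polymerase I to processing, one of 0.0058 ± 0.032. RRN3, the factor that recruits polymerase I to its promoter, had -0.072 ± 0.036. Its counts are uncertain because 4 pseudogenes made up 17.9% of the summed level, and with them it summed to 132.9 ± 5.18 CPM (DMSO) and 129.7 ± 1.87 CPM (BPAF).

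NOLC1 and DDX21 were the most abundant and the most shifted members of the polymerase I group. NOLC1, a chaperone of snoRNPs, was at 487, 509 and 505 CPM in DMSO and at 478, 489 and 490 CPM in BPAF. Its groups overlapped (log2 fold change -0.043 ± 0.028, edgeR adjusted p = 0.432). The RNA helicase DDX21, which acts on rRNA transcription and processing, was at 459, 463 and 480 CPM in DMSO and at 445, 439 and 439 CPM in BPAF. Its groups did not overlap, and its log2 fold change of -0.083 ± 0.028 missed the threshold in edgeR (adjusted p = 0.0876) and passed in DESeq2 (0.0471). By TPM the values of both genes were above 0, at 0.046 for NOLC1 and 0.0070 for DDX21.

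The box C/D snoRNPs methylate rRNA on the ribose, and their 3 core members had similar small values, none of which passed in edgeR without an offset. With the length and GC offset FBL (edgeR adjusted p = 0.0184) and NOP56 (0.0156) passed. NOP56, 1 of 2 paired scaffold subunits, was at 545, 558 and 554 CPM in DMSO and at 526, 530 and 530 CPM in BPAF. Groups did not overlap, and the log2 fold change was -0.063 ± 0.027 (edgeR adjusted p = 0.182). NOP58, the other scaffold subunit, was at 256, 266 and 270 CPM in DMSO and at 250, 248 and 246 CPM in BPAF. Its groups also did not overlap (-0.089 ± 0.030, edgeR adjusted p = 0.0829). The methyltransferase FBL was at 297.0 ± 10.2 and 285.1 ± 2.61 CPM, and its groups overlapped (-0.059 ± 0.030). On TPM both NOP56 (0.0033) and NOP58 (0.022) had log2 fold changes just above 0.

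The box H/ACA snoRNPs convert selected uridines to pseudouridine. With all libraries and no offset, 0 of their 4 members passed in edgeR, with 0 unadjusted p under 0.05. With the length and GC offset NHP2 passed (edgeR adjusted p = 0.0485). NHP2 was at 154, 148 and 153 CPM in DMSO and at 145, 154 and 142 CPM in BPAF, with overlapping groups (log2 fold change -0.044 ± 0.035, and 0.047 with TPM). NOP10, a small structural subunit, was at 64.6, 62.6 and 64.9 CPM in DMSO and at 59.6, 64.9 and 51.7 CPM in BPAF. BPAF replicate 3 was the lowest and BPAF replicate 2 reached the DMSO level, so the log2 fold change of -0.13 ± 0.066 did not pass (edgeR adjusted p = 0.314) and did so without BPAF replicate 2 (-0.20, adjusted p = 0.0490). The pseudouridine synthase DKC1 had a log2 fold change of -0.057 ± 0.029 and GAR1 one of 0.041 ± 0.049.

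The 10 small subunit factors ranged from a log2 fold change of -0.11 to 0.018 and gave 0 calls in edgeR, with 2 unadjusted p under 0.05. NAT10, which acetylates cytidines of the small subunit rRNA, was the most abundant per length at 92.2 TPM. It was at 237, 237 and 230 CPM in DMSO and at 233, 235 and 237 CPM in BPAF (log2 fold change 0.0024 ± 0.029), a value whose sign changed between fits. UTP15, a subunit of the complex that binds the precursor during transcription, was at 45.4, 48.3 and 48.8 CPM in DMSO and at 44.0, 42.6 and 45.1 CPM in BPAF. Its groups did not overlap (-0.11 ± 0.051, edgeR adjusted p = 0.219). The other members that belong to that complex, WDR75 (-0.11 ± 0.036), WDR43 (-0.036 ± 0.033) and UTP4 (-0.032 ± 0.039), did not pass. Small subunit factors outside the members, some of which fell, are described further down. The helicase DDX10 (-0.078), the U3 snoRNP protein RRP9 (-0.046), the scaffold UTP20 (0.0037), the export factor RRP12 (0.015) and NOP14 (0.018) did not either.

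Large subunit assembly held 4 of the 5 falls, among 14 members. That was 28.6% of this group, the largest, against 3.4% of all genes tested and 8.21% of genes at least as abundant as the lowest member. The calls of NOP16 and DDX18 did not hold in most fits that lacked a library. GNL3 encodes nucleostemin, a nucleolar GTPase known for its high level in stem and cancer cells (ENSG00000163938, chromosome 3, 52681156 to 52694492). It was at 293, 303 and 308 CPM in DMSO and at 269, 270 and 272 CPM in BPAF. The BPAF libraries lay close together and below all DMSO libraries. The means were 301.2 ± 7.79 and 270.5 ± 1.41 CPM, which is -0.15 ± 0.029 on the log2 scale, with an edgeR adjusted p of 0.00328. Its neighbour GLT8D1 on the opposite strand was at 54.1 ± 2.15 and 54.3 ± 1.26 CPM, and PBRM1, which overlaps its start, at 211.0 ± 5.92 and 207.9 ± 8.5.

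BRIX1, a factor of early large subunit assembly (ENSG00000113460, chromosome 5, 34915376 to 34925996), was at 126, 128 and 132 CPM in DMSO. In BPAF it was at 115, 116 and 116 CPM, again with no overlap. The log2 fold change was -0.15 ± 0.034 (edgeR adjusted p = 0.0126). NOP16 (ENSG00000048162, chromosome 5, 176383938 to 176388975) was at 65.5, 70.7 and 74.2 CPM in DMSO and at 63.6, 62.6 and 56.9 CPM in BPAF. The lowest DMSO and the highest BPAF library were close, and the log2 fold change was -0.20 ± 0.053 (edgeR adjusted p = 0.0297, limma-voom adjusted p = 0.0534). The helicase DDX18 (ENSG00000088205, chromosome 2, 117814650 to 117832379) was at 268, 260 and 268 CPM in DMSO and at 245, 248 and 249 CPM in BPAF. Its groups did not overlap, and its log2 fold change was -0.10 ± 0.028 with counts (edgeR adjusted p = 0.0373) and 0.013 with TPM.

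The 5 calls differed in how far they rested on single libraries. With single libraries left out, NPM1 and GNL3 passed in 6 of 6 fits, with edgeR adjusted p up to 0.0154 and 0.0363. BRIX1 passed in 5 and lost its call without BPAF replicate 1 (adjusted p = 0.0734). NOP16 passed in 2, those without DMSO replicate 1 or BPAF replicate 2, and its adjusted p reached 0.155 without BPAF replicate 3. DDX18 passed in 1, that without DMSO replicate 2, and its adjusted p reached 0.178 without BPAF replicate 1. It also missed the threshold with upper quartile scaling (edgeR adjusted p = 0.065) and among protein-coding genes alone (0.0629). The 5 members that fell all had deposited counts that were not whole in some library, as did 26 of the 40 members and 9976 of the 15490 genes tested, and no source used here says what made them fractional.

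The other large subunit factors did not pass in edgeR with all libraries, the standard filter and no offset. PES1, BOP1 and WDR12 form 1 complex that is needed to cut the large subunit precursor. WDR12 had the lowest value of the 3, at 141, 132 and 133 CPM in DMSO and 122, 120 and 131 CPM in BPAF (edgeR adjusted p = 0.0674, log2 fold change -0.12 ± 0.039). It passed without BPAF replicate 3 (edgeR adjusted p = 0.0383) and with no filter on low counts. With the length and GC offset WDR12 (edgeR adjusted p = 0.0389) and BOP1 (0.0228) passed. BOP1 was at -0.065 ± 0.036 and PES1 at -0.046 ± 0.030. GNL2, a GTPase of the same family as GNL3, had a log2 fold change of -0.056 ± 0.037, NIP7 one of -0.053, EBNA1BP2 one of -0.049 and the methyltransferase NOP2 one of 0.0045. NOP2 overlaps a longer gene (ENSG00000285238) on its own strand, so its counts are uncertain, and the sum of both was 272.5 ± 8.1 CPM in DMSO and 270.3 ± 3.7 in BPAF.

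A few large subunit members had values above 0. RRP1B, which also targets a protein phosphatase to the nucleolus, was at 232, 231 and 234 CPM in DMSO and at 243, 245 and 247 CPM in BPAF. All BPAF libraries lay above all DMSO libraries, and the log2 fold change of 0.077 ± 0.028 did not pass (edgeR adjusted p = 0.117). PPAN was at 123, 122 and 123 CPM in DMSO and at 127, 128 and 135 CPM in BPAF (0.081 ± 0.035, edgeR adjusted p = 0.197). PPAN overlaps P2RY11 and the read-through gene PPAN-P2RY11 on the same strand, and the sum of the 3 was 180.7 ± 3.21 and 183.5 ± 0.70 CPM. LAS1L, a subunit of the endonuclease that cuts the internal spacer, had a log2 fold change of 0.046 ± 0.033.

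The sizes were near the limit of what 6 such libraries resolve. On simulated counts for BPAF against DMSO with 15490 genes and 200 of them changed, the test found 4.5% of the changed genes at a size of 1.1-fold, 59.5% at 1.2-fold and 88.5% at 1.5-fold. The changed genes were drawn from a range that reaches well below the members' abundance, so these rates are not the members' own. GNL3, BRIX1 and DDX18 passed with changes of -10.2%, -9.95% and -6.84%, whereas NOP10 and WDR12 did not with -8.44% and -8.21%. Most members differed by less than 1.1-fold, so a member that did not pass is not shown to be unchanged.

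Other genes of the pathway, 144 in a list that excludes the members, showed the same pattern of small values: 13 fell and 3 rose in edgeR, where 3.4% and 2.65% of all genes tested were called, and 8.21% and 2.59% of genes at least as abundant as the lowest member. On TPM, limma called 0. DESeq2 called 11 lower and 2 higher and limma-voom 12 and 3. The log2 fold change was below 0 for 108 of 144 genes by counts and for 45 by TPM. By counts this was 75%, against 49.2% of all genes tested and 64.3% of genes at least as abundant as the lowest member. Relative to the median of all genes, 108 lay below by counts and 98 by TPM. Every BPAF library lay below every DMSO library for 44 of these genes and above for 11. The 44 were 30.6%, against 12.8% of all genes tested and 24.7% of genes at least as abundant as the lowest member. The shares above were 12% of all genes tested and 8.42% of genes at least as abundant as the lowest member. The list itself reaches down to 1.025 TPM, so that background is not matched to it in abundance.

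The falls were 6 of 51 large subunit factors (11.8%), 5 of 48 small subunit factors (10.4%) and 1 of 10 snoRNP assembly factors (10%). They also held 1 of 24 exosome and nuclease genes (4.17%) and 0 of 11 genes of RNA polymerase I transcription. Over all genes tested 3.4% were called lower, and 8.21% of genes at least as abundant as the lowest member. A single call does not set a branch apart from these shares. The large subunit branch also held 2 of the 3 rises, the helicase DDX51 (log2 fold change 0.17) and the polynucleotide kinase NOL9 (0.19), which works with LAS1L. NSA2, a factor of the maturing large subunit particle, went from 145.1 ± 5.71 to 124.9 ± 1.5 CPM (edgeR adjusted p = 0.00137, log2 fold change -0.22 ± 0.035). NIFK, a nucleolar protein that binds the proliferation marker Ki-67, went from 124.8 ± 2.16 to 108.7 ± 2.31 CPM (-0.20 ± 0.035), yet by TPM it was at 156.2 and 155.7. CEBPZ, an assembly factor of the large subunit, went from 76.2 ± 0.92 to 65.3 ± 0.41 CPM (-0.22 ± 0.041, edgeR adjusted p = 0.00293). RSL24D1, which holds the place of a ribosomal protein on the immature particle, fell by 0.30 on the log2 scale and RPF1 by 0.17. NSA2, NIFK and CEBPZ passed in 6 of 6 fits that lacked a library, whereas RSL24D1 lost its call without BPAF replicate 3 (edgeR adjusted p = 0.0773) and RPF1 passed in 2 of the 6.

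Among the other branches, NOL11 (log2 fold change -0.15), TRMT112 (-0.16) and KRR1 (-0.15) of small subunit processing fell, as did the snoRNP assembly factor ZNHIT3 (-0.21) and the exosome cofactor C1D (-0.28). Leaving out each library in turn, these 5 genes, DDX51 and NOL9 passed in 3 or 4 of 6 fits, and their edgeR adjusted p reached 0.133. FCF1 (-0.16), RPF2 (-0.17), RIOK2 (-0.17) and NOP9 (0.12) made up the remaining calls and are named after their values were seen. Of 11 further genes of RNA polymerase I transcription, 0 passed in edgeR, and 2 had an unadjusted p under 0.05. EXOSC6, also singled out after its values were seen, had the highest log2 fold change of the list, 2.24 ± 1.26, at 0, 0.15 and 3.70 CPM in DMSO and 3.98, 4.17 and 9.71 in BPAF (edgeR adjusted p = 0.441).

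**Figure D4:**
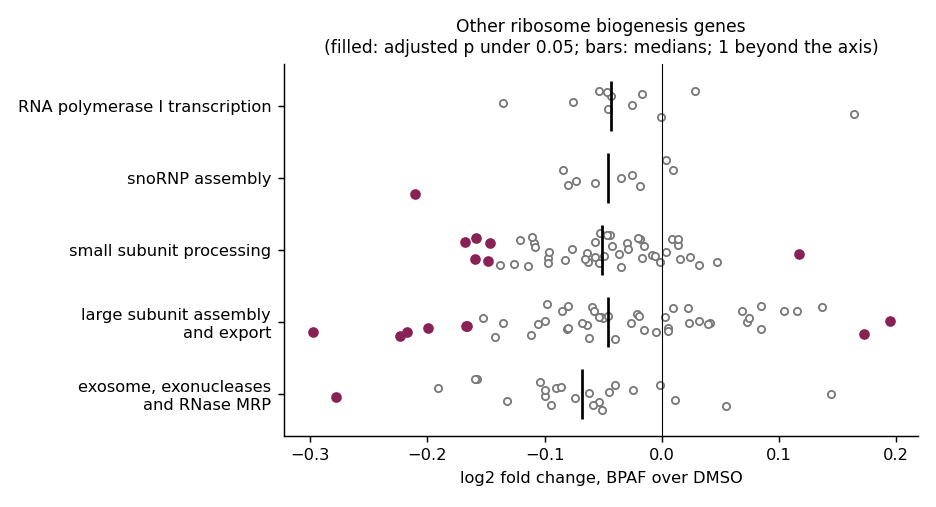
Log2 fold change (horizontal axis, BPAF over DMSO on TMM-scaled counts) of the other 144 ribosome biogenesis genes by branch, filled where adjusted p was under 0.05, with bars at the medians and EXOSC6 beyond the axis. Filled points lie mostly left of 0, 13 against 3, and the medians run from -0.068 to -0.043, whereas on TPM the median of the whole list is 0.041.

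Base composition moved with the change. Of the 5 members that fell, 4 had a transcript GC content under 45% (NPM1 43.3%, GNL3 41.4%, DDX18 40.5% and BRIX1 38.2%), and NOP16 had 54.1%. The 15 members under 45% GC had a median log2 fold change of -0.089 on counts, the 17 from 45% to 55% one of -0.032 and the 8 at 55% or more one of -0.020. All protein-coding genes tested had medians of -0.038, -0.00056 and 0.017 in the same classes, with 334 of their 511 falls in the lowest. Over the 40 members the log2 fold change and GC content had Pearson's r = 0.47 and Spearman's rho = 0.53, a description across genes, which share libraries and are not independent. Once exon length and GC content were entered as an offset, 10 members were called lower and 0 higher, where 6.63% and 2.02% of all genes were. The original 5 were among these 10, and FBL, NOP56, NHP2, BOP1 and WDR12 were added. With that offset the median of members was -0.074 and that of all genes -0.028.

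**Figure D5:**
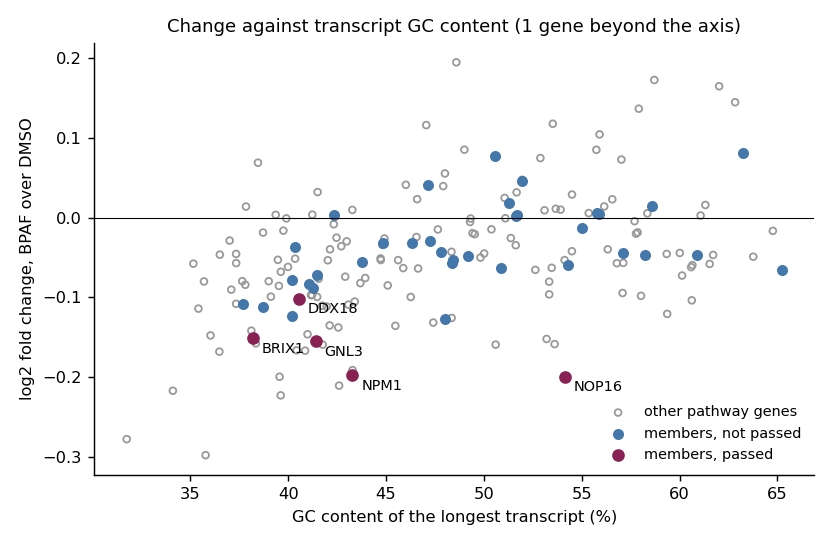
Log2 fold change (vertical axis, BPAF over DMSO on TMM-scaled counts) against GC content of the longest annotated transcript (horizontal axis, %) for members (filled points) and the other pathway genes (open circles), with EXOSC6 beyond the axis. Members under 45% GC have a median of -0.089 and include 4 of the 5 that fell. On TPM the median of all members is 0.046.

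Several members carry snoRNA genes within their introns or exons, on the same strand. This held for 7 of 40 members (17.5%), against 1.84% of protein-coding genes tested: NCL, NOP56, NOP58, DKC1, WDR43, GNL3 and PPAN. GNL3 was the 1 host that fell, and the median log2 fold change of the 7 hosts was -0.057, against -0.046 in the other members. Among all protein-coding genes tested, 28 of 227 hosts were called lower, with medians of -0.031 in hosts and -0.0095 in the others. For comparison, 12.5% of all members and 4.14% of all protein-coding genes tested were called lower. Among genes at least as abundant as the lowest member the share was 8.21%. In the list of other pathway genes, 1 of 7 hosts was called lower, with medians of 0.0025 in hosts and -0.052 in the others. Opposite-strand genes at 1 CPM or more overlapped 11 members and same-strand genes 3.

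The cells had the T-cell profile of the label. The 10 T-cell markers were all present, with a summed level of 2716 to 2755 CPM in DMSO and 2628 to 2712 in BPAF. These ranges did not overlap, so this sum also lay lower in every BPAF library. The 4 myeloid, 4 epithelial and 4 fibroblast markers summed to at most 3.01 CPM in any library, and EPCAM, CDH1, DCN and LUM were at 0 in all. The B-cell markers summed to 12.8 to 15.1 CPM in DMSO and 11.7 to 12.5 in BPAF, nearly all from CD79A. In bulk RNA a lower level per cell and a smaller share of cells with the transcript cannot be told apart. Library totals ran from 20253656 to 22617613 counts and overlapped between groups. The TMM factors did not overlap: they ran from 0.982 to 0.992 in DMSO and from 1.008 to 1.016 in BPAF. A larger factor lowers every CPM of its library. The members' median log2 fold change less that of all genes was -0.0495 with TMM and -0.0495 with upper quartile scaling. The part of this scaling in the members' own shift was not tested.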

How the data were processed

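Polyadenylated RNA was sequenced from 6 Jurkat libraries, 3 per group, as stranded paired-end libraries per the labels' protocols. Tools named in the submitters' processing notes are HISAT2, featureCounts, cutadapt and FastQC, with the builds GRCh38 and hg38. The authors deposited estimated counts with decimals and TPM values; no source used here says how either was computed. Rounded counts went through filterByExpr and TMM scaling into edgeR 4.0.16 (R 4.3.3), quasi-likelihood with robust dispersion, no covariate and Benjamini-Hochberg adjustment over 15490 genes. SE is the log2 fold change over the root of F. DESeq2 1.42.0, limma 3.58.1 (voom, and log2 of TPM plus 1 or 0.1), other scalings and filters, protein-coding genes, a spline offset for length and GC, a replicate block and each library left out were alternatives. The 192 assembled loci without a gene identifier stayed in the tests and took 0.243% to 0.271% of counts. Positions, lengths and GC come from GENCODE 29 and promoters from RefSeq. The edgeR test was checked on simulated data. Members, lists and tests were chosen with earlier results of these data known. Full values are given for members past the threshold and, in each role, the most abundant and most shifted member, and for up to 12 pathway genes by smallest p. No pair of libraries agreed within sampling noise.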

Additional observations from a re-analysis of the deposited data

How the results depend on the processing

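Of the main results, the number of members called lower was 5, and it was 3 with the replicate block (NOP16, adjusted p = 0.0716, and DDX18, 0.0551, lost their call), 10 with the length and GC offset and 0 on TPM with either pseudocount. Leaving out 1 library gave 2 to 5, with 2 without BPAF replicate 1 and 3 without DMSO replicate 3, while 0 members were called higher in every alternative run. The groups share replicate numbers, and the labels name no batch. Deviations of same-numbered libraries had correlations of 0.0010, -0.043 and 0.014. With 3 libraries per group these values cannot decide whether the libraries were paired. The members' median log2 fold change (-0.048) was -0.074 with the offset, 0.046 with TPM plus 1 and 0.047 with TPM plus 0.1, and -0.063 to -0.036 with 1 library left out. Other pathway genes called lower were 13, against 27 with the offset, 0 on TPM and 6 to 12 with 1 library left out (6 without BPAF replicate 1, BPAF replicate 3 or DMSO replicate 3). Those called higher were 3, against 0 on TPM and 0 to 4 with 1 library left out (0 without BPAF replicate 1, 1 without BPAF replicate 3, DMSO replicate 1 or DMSO replicate 3). Over all genes 938 were called, against 1 with TPM plus 1, 2 with TPM plus 0.1 and 322 to 861 with 1 library left out (322 without BPAF replicate 1, 392 without BPAF replicate 3, 482 without DMSO replicate 1). On TPM, 2699 and 2666 genes had an unadjusted p under 0.05. The difference in summed share was -0.022 percentage points by counts and 0.0021 by TPM. Signs turned on TPM plus 1 and plus 0.1 for NOLC1 (0.046 and 0.047), DDX21 (0.0070 and 0.0071), NOP56 (0.0033 and 0.0033), NOP58 (0.022 and 0.022), NHP2 (0.047 and 0.047) and DDX18 (0.013 and 0.013). NAT10 turned to -0.0018 in DESeq2, -0.042 with the offset, -0.0013 without a filter, -0.0053 without BPAF replicate 3, and ran from -0.013 (without DMSO replicate 3) to 0.0084 (without DMSO replicate 1) with 1 library left out. The cause of these changes was not tested.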
